A study of Caenorhabditis elegans with 6 samples.

Results

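The clec genes of Caenorhabditis elegans, which encode proteins with a C-type lectin-like domain, were followed in tdp-1(ok803) and wild-type worms. Members were the probe sets with a single gene symbol of the form clec and a number, with 1 probe set a gene, chosen by the highest mean value over all 6 arrays. This gave 220 of the 17118 genes measured. The family was selected on earlier results of this same comparison, in which clec-60, clec-70 and clec-86 were higher in the mutant, so those 3 differences are given as a description with no test. The 264 clec genes of the WBcel235 gene table hold 239 that are protein coding. Another 22 probe sets name more than 1 gene, a clec gene among them, and were left out.

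The mutant group was 3 arrays of outcrossed tdp-1(ok803) worms, whose allele the labels mark as loss of function in a gene that encodes the worm counterpart of the RNA-binding protein TDP-43. It was set against 3 arrays of wild-type N2 worms. All 6 samples were whole animals of mixed stages grown under standard conditions, and the labels give neither the share of each stage nor the sex of the worms. The design text calls the samples biological replicates. The question was which transcripts differ in amount when tdp-1 is lost.

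C-type lectin-like domains were first known from vertebrate proteins that bind sugars in the presence of calcium, and many members in worms lack evidence of sugar binding. The family is large in nematodes, and many of its genes are switched on in the intestine when worms meet pathogenic bacteria or fungi. Different pathogens induce different sets of clec genes, partly downstream of the p38 kinase PMK-1, the central kinase of worm intestinal immunity. Only a few members have a tested role, among them several that protect against named bacteria and one, clec-38, that acts in neurons.

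The targeted gene went with the labels: tdp-1 itself (F44G4.4, chromosome II) had values of 4.77, 4.78 and 5.47 in tdp-1(ok803) and 8.86, 9.22 and 8.85 in wild type on its brighter probe set. Values are log2 units throughout, so a difference of 1 is 2-fold. Array medians lay between 5.41 and 5.52. Wild-type replicate 3 and mutant replicate 3 stood at opposite ends for the clec genes, as described below, and the family median is given without each. In whole worms, fewer cells that express a gene and less RNA per cell cannot be told apart. The number of arrays limits the precision of every difference.

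Most clec genes differed little, and the family leaned slightly upward in the mutant. The median difference was 0.066 over the 220 genes, against 0.0021 over all 22548 probe sets, with quartiles of -0.03 and 0.17 in the family. A difference above 0 was found for 147 genes (66.8%), against 50.5% of all probe sets. Mutant values lay wholly above the wild-type values for 28 genes (12.7%), against 6.8% of all probe sets, and wholly below for 10 (4.55%), against 4.84%. Over all 17118 genes, also at 1 probe set a gene, the median was 0.013 and 53% were above 0. Of those genes 7.41% lay wholly above and 4.7% wholly below. At least 1.5-fold higher in the mutant were 10 genes (4.55%, against 1.01% of all probe sets), and at least 1.5-fold lower were 2 (0.909%, against 2.12%). Because earlier results of this contrast brought the family up, these shares describe it and nothing is read from them.

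The fit across all probe sets (limma, adjusted p under 0.05) called 1 clec gene higher (0.455%, against 0.031% of all probe sets). That gene is clec-60, which helped to select the family on this contrast, so nothing is read from the count. It called 0 lower, against 0.0266% of all probe sets. At an unadjusted p under 0.05 limma had 18 higher (8.18%, against 3.58%) and 2 lower (0.909%, against 3.38%). The 18 include clec-60, clec-70 and clec-86, without which the other 217 clec genes had 15 higher and 2 lower. The family was selected on this contrast, so nothing is read from these counts either. An unmoderated linear model called 0 clec genes and 0 of all 22548 probe sets, tdp-1 included, so nothing is read from its 0.

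Mean values over the 6 arrays ran from 3.19 to 13.8 in the family, with a median of 4.64, and only 55 genes reached the median probe set at 5.49. Whether the others lay above background was not assessed. The 55 brighter genes had a median difference of 0.15, with 41 above 0. Of them 17 lay wholly above wild type (30.9%, against 8.14% of all probe sets of that range) and 2 wholly below (3.64%, against 6.2%). All probe sets of that range had a median of -0.03. The 165 dimmer genes had a median of 0.043, against 0.018 for all dimmer probe sets. Of them 11 lay wholly above wild type (6.67%, against 5.46% of all dimmer probe sets) and 8 wholly below (4.85%, against 3.49%), shares near the background. The larger differences, in both directions, were thus found among genes with a mean above 5. That mean includes the mutant arrays, so a gene high in the mutant alone can enter the brighter set. With wild-type means of 5.09, 4.98, 5.24 and 5.38, clec-60, clec-86, clec-82 and clec-7 entered it in this way. The upward shares and the median of the brighter set are therefore partly built in, and nothing is read from them.

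**Figure D1:**
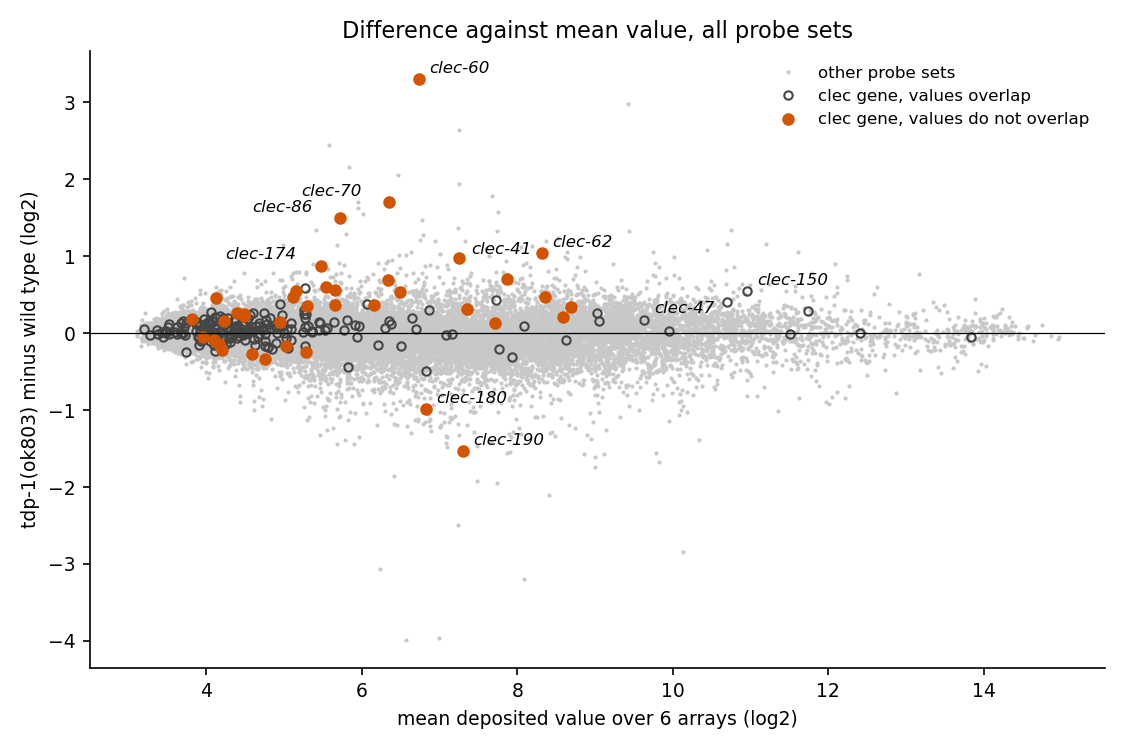
Difference between tdp-1(ok803) and wild type (log2, y axis) against the mean value over 6 arrays (log2, x axis) for 220 clec genes (circles, filled orange where the 3 mutant and 3 wild-type values do not overlap) and all other probe sets (grey). The gene clec-60 stands at 3.30 and most clec genes lie close to 0, with a cloud of dim genes to the left of a mean of 5.49.

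The widest difference belonged to clec-60 (ZK666.6, chromosome II), a gene known as a marker of intestinal infection with Staphylococcus aureus. Its values were 8.14, 8.79 and 8.24 in tdp-1(ok803) and 5.79, 5.05 and 4.41 in wild type. The lowest mutant array stood well above the highest wild-type array, and the wild-type arrays spread more widely. The difference was 3.30 ± 0.34 (SE), a 9.88-fold higher signal in the mutant, from means of 8.39 ± 0.35 and 5.09 ± 0.69 (SD, n = 3 each). The wild-type mean lay below the array medians, so the size of the fold rests on a signal of unknown distance from background. Its nearest clec genes, clec-59 and clec-61, which were picked after their values were seen, differed by 0.19 and -0.07.

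Another gene known to be induced by Staphylococcus aureus, clec-70 (Y46C8AL.3, chromosome IV), had 6.94, 7.06 and 7.62 in tdp-1(ok803) and 5.07, 5.91 and 5.53 in wild type. The groups were more than 1 unit apart at their closest arrays. The difference was 1.70 ± 0.25 (SE), or 3.25-fold. On chromosome X, clec-86 (C54D1.2) had 6.51, 6.73 and 6.16 in tdp-1(ok803) and 5.39, 4.55 and 4.99 in wild type, a difference of 1.49 ± 0.23 (SE), or 2.81-fold. Its groups were apart too, by less than the mean difference, and its wild-type mean of 4.98 also lay below the array medians, at an unknown distance from background. Without clec-60, clec-70 and clec-86 the median of the other 217 clec genes was 0.056.

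Of the genes the rule does not name, clec-62 (F35C5.5, chromosome II) had the widest upward difference. Its values were 8.79, 8.86 and 8.88 in tdp-1(ok803) and 8.11, 7.66 and 7.64 in wild type. The mutant arrays lay within 0.1 of each other and all above the highest wild-type array. The difference of 1.04 ± 0.15 (SE, 2.06-fold) did not pass over all probe sets (limma adjusted p = 0.119). The gene clec-41, whose product protects worms against Bacillus thuringiensis, had 7.78, 7.60 and 7.84 in tdp-1(ok803) and 7.07, 6.13 and 7.11 in wild type. All mutant arrays were higher, and wild-type replicate 2 was the lowest of the 6. The difference was 0.97 ± 0.26 (SE, limma adjusted p = 0.421).

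Further genes with no overlap showed smaller differences, none of which passed. On chromosome IV, clec-174 had 5.69, 5.74 and 6.32 in tdp-1(ok803) and 5.31, 5.12 and 4.68 in wild type, a difference of 0.88 (limma adjusted p = 0.394). Values of clec-10 were 8.02, 8.15 and 8.47 in tdp-1(ok803) and 7.49, 7.07 and 7.97 in wild type, a difference of 0.70 (limma adjusted p = 0.571), and mutant replicate 1 barely exceeded wild-type replicate 3. The gene clec-4, linked to the response to Bacillus thuringiensis, had 6.60, 6.57 and 6.88 in tdp-1(ok803) and 6.14, 6.21 and 5.65 in wild type, a difference of 0.69 (limma adjusted p = 0.409). The remaining genes of the 12 widest were clec-82 at 0.60, clec-7 at 0.56, clec-208 at 0.54 and clec-147 at 0.53, with limma adjusted p between 0.421 and 0.606. The other 16 genes that lay wholly above wild type differed by 0.13 to 0.47.

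Several of these values come from probe sets that can match more than 1 transcript. The probe sets of clec-10, clec-41, clec-62 and clec-147 end in _s_at, which marks probes shared between transcripts, and that of clec-174 ends in _x_at, which marks probes that may cross-hybridize. How far other transcripts, of the same gene or of another, add to their signals was not measured. In the family, 28 genes were represented by a probe set of the first kind and 2 by one of the second. With those probe sets left out, 190 clec genes had a median difference of 0.056.

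**Figure D2:**
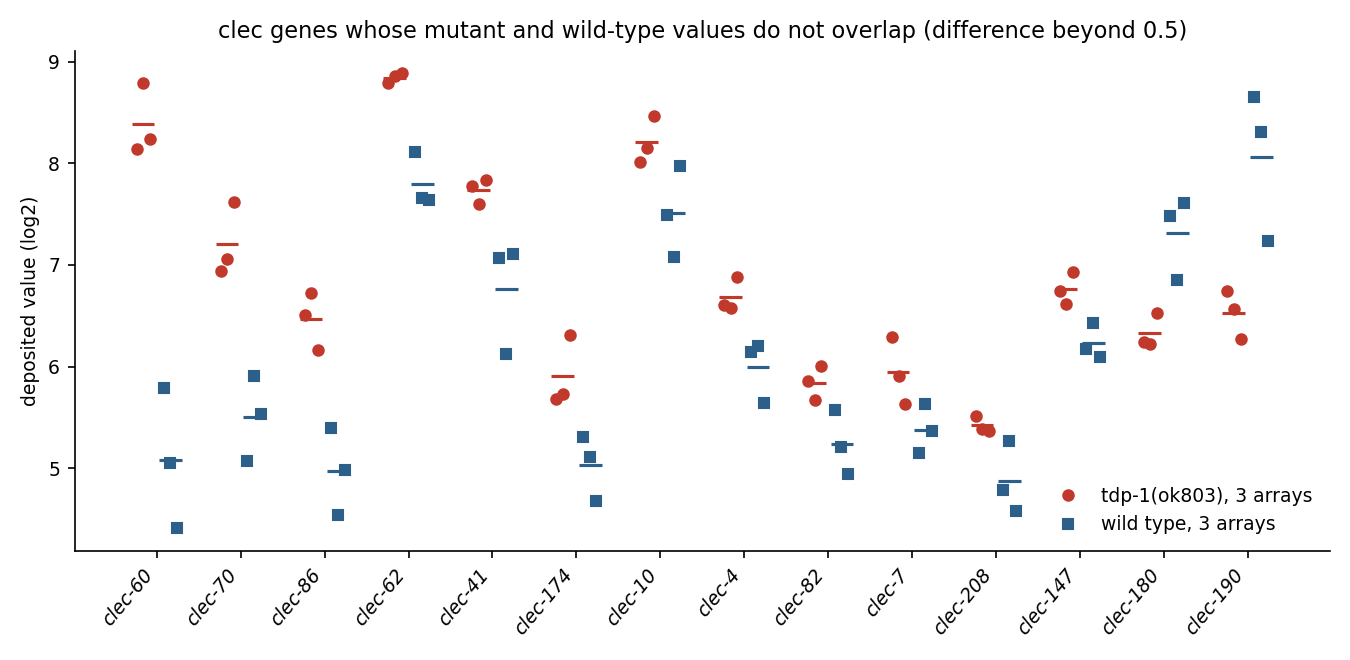
Deposited log2 values on each array (y axis) for 14 clec genes whose mutant and wild-type values do not overlap and differ by more than 0.5, with tdp-1(ok803) arrays as red circles left of wild-type arrays as blue squares and a line at each mean of 3. The genes run from clec-60, at 8.14 to 8.79 in tdp-1(ok803) and 4.41 to 5.79 in wild type, to clec-190, where the mutant arrays lie lowest relative to wild type.

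Far fewer clec genes were lower in the mutant by a wide margin. The gene clec-190 (M199.4, chromosome IV) had 6.75, 6.57 and 6.27 in tdp-1(ok803) and 8.65, 8.31 and 7.24 in wild type. The difference was -1.53 ± 0.34 (SE, limma adjusted p = 0.288), and wild-type replicate 3 lay nearest to the mutant arrays. Its probe set ends in _s_at. The gene clec-180 (F32E10.3, chromosome IV) had 6.24, 6.22 and 6.53 in tdp-1(ok803) and 7.48, 6.85 and 7.61 in wild type, a difference of -0.99 ± 0.21 (SE, limma adjusted p = 0.271). These were the 2 clec genes at least 1.5-fold lower.

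The other 8 genes that lay wholly below wild type differed by -0.05 to -0.34, from clec-113 to clec-129, and all had a mean below the median probe set. They were clec-12 at -0.27, clec-72 at -0.24, clec-64 at -0.22, clec-46 at -0.17, clec-116 at -0.14, clec-121 at -0.09 and those 2. Their limma adjusted p lay between 0.745 and 0.956, so none of them passed.

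Grouped by known role, each list of more than 1 clec gene held at least 1 gene apart upward beside genes that overlapped. Of the whole family 12.7% lay wholly above wild type, against 6.8% of all probe sets. The genes clec-60 and clec-70 helped to select the family, and clec-4 stands in more than 1 list. No pattern across roles is therefore read from these lists. Among 4 genes induced by Staphylococcus aureus, clec-60 and clec-70 were higher as given above, while clec-52 and clec-71 overlapped. Values of clec-52 were 6.23, 6.34 and 6.75 in tdp-1(ok803) and 6.18, 6.92 and 5.87 in wild type, a difference of 0.12. Values of clec-71 were 4.82, 4.62 and 4.70 in tdp-1(ok803) and 4.80, 5.13 and 4.73 in wild type, a difference of -0.18. Neither passed (limma adjusted p = 0.96 for clec-52 and 0.876 for clec-71).

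Of 4 genes tied to defence or behaviour towards Bacillus thuringiensis, clec-4 and clec-41 were apart upward and the other two overlapped. The gene clec-42 had 4.71, 4.51 and 5.02 in tdp-1(ok803) and 5.12, 4.94 and 4.79 in wild type, a difference of -0.20, and clec-29 differed by -0.07. The groups were interleaved for clec-42 and nearly coincided for clec-29. Their limma adjusted p were 0.876 and 0.946.

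The products of clec-39 and clec-49 bind Serratia marcescens and contribute to survival on it. Values of clec-49 were 8.86, 8.74 and 8.98 in tdp-1(ok803) and 8.70, 8.64 and 8.20 in wild type, a difference of 0.34 without overlap (limma adjusted p = 0.758). The mutant margin over the highest wild-type array was under 0.1. By contrast clec-39 was at 3.57 to 3.64 in tdp-1(ok803) and 3.58 to 3.64 in wild type, among the dimmest signals of the family.

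Genes known to need PMK-1 for their expression are clec-4, clec-67 and clec-85, of which clec-4 is described above. All 3 had a difference above 0, with a median of 0.44, and clec-4 alone did not overlap. Values of clec-67 were 6.16, 6.19 and 6.41 in tdp-1(ok803) and 6.45, 5.66 and 5.51 in wild type, a difference of 0.38. Values of clec-85 were 7.95, 8.30 and 7.59 in tdp-1(ok803) and 7.99, 7.36 and 7.18 in wild type, a difference of 0.44. Wild-type replicate 1 was the highest of all 6 arrays for clec-67 and lay within the mutant range for clec-85, and neither gene passed (limma adjusted p = 0.842 and 0.823). The neuronal gene clec-38, a transmembrane protein that restrains axon outgrowth and promotes presynaptic development, had 4.60, 4.35 and 4.97 in tdp-1(ok803) and 4.66, 4.84 and 4.55 in wild type, with overlapping groups and a difference of -0.05.

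Many clec genes lie side by side. Runs of at least 3 adjacent clec genes, with none of another family between them, were sought among protein-coding genes and pseudogenes in the WBcel235 order. Of these runs 15 held a measured gene, with 67 measured members in them. The 3 runs with the highest median difference are described here and were picked after their values were seen. On chromosome IV the run from clec-67 to clec-174 had a median of 0.38 over 5 measured genes. Next to clec-70, at 1.70, the pseudogene clec-69 differed by 0.14 and clec-71 by -0.18, and beyond clec-71 stood clec-174 at 0.88.

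On chromosome II the run from clec-62 to clec-66 had a median of 0.29. The differences in gene order were 1.04 for clec-62, 0.29 for clec-63, -0.22 for clec-64, 0.26 for clec-65 and 0.47 for clec-66. Values of clec-66 were 8.78, 8.47 and 8.53 in tdp-1(ok803) and 8.18, 8.10 and 8.10 in wild type, without overlap (limma adjusted p = 0.421). The dim gene clec-64, at 4.01 to 4.18 in tdp-1(ok803) and 4.27 to 4.39 in wild type, lay wholly lower. On chromosome I all 6 genes from clec-94 to clec-99 had a difference above 0, between 0.028 and 0.59, and clec-94 alone did not overlap. The pair clec-8 and clec-4 on chromosome II lay wholly above wild type, at 0.47 and 0.69.

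Neighbours thus often differed from each other, and the longest run, 13 genes on chromosome V of which 9 were measured, ranged from -0.08 to 0.26 with every member overlapping. By chromosome, 10 of 47 clec genes on II lay wholly above wild type (21.3%, against 7.2% of all genes on II). The counts were 8 of 77 on V (10.4%, against 7.16%) and 1 of 31 on I (3.23%, against 7.61%). On IV 5 of 45 did, where 7.8% of all genes did, and on III 3 of 17 (17.6%, against 8.44%). Of the 3 genes on X clec-86 alone did, against 6.46% of all genes on X. The counts include clec-60 on II, clec-70 on IV and clec-86 on X, which helped to select the family. Nothing is therefore read from these shares.

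**Figure D3:**
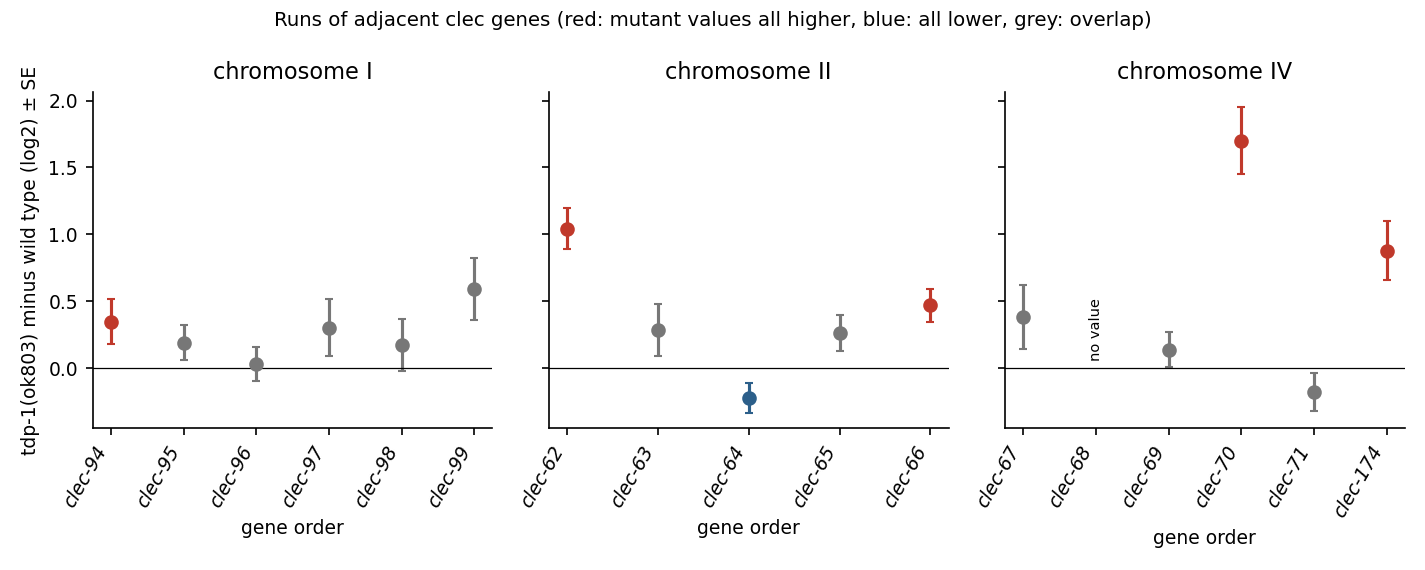
Difference between tdp-1(ok803) and wild type (log2, y axis, bars ± SE) for adjacent clec genes in chromosome order (x axis) in 3 runs, red where all mutant values are higher, blue where all are lower and grey where they overlap. The point at 1.70 for clec-70 stands between 0.14 for clec-69 and -0.18 for clec-71, that at 1.04 for clec-62 stands next to 0.29 for clec-63, and clec-68 had no value.

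The 8 clec genes with the highest mean were clec-87, clec-88, clec-63, clec-91, clec-150, clec-50, clec-1 and clec-47, and all of them overlapped between genotypes. Values between probe sets are not comparable, so this names them and ranks nothing. The gene clec-87 had 13.77, 13.85 and 13.78 in tdp-1(ok803) and 13.82, 14.01 and 13.74 in wild type, a difference of -0.05. The values of clec-88, at 12.30 to 12.60 in tdp-1(ok803) and 12.28 to 12.53 in wild type, gave a difference of 0.0045 ± 0.13 (SE). Second probe sets spread more widely, with differences of -0.40 for clec-87 and -0.21 for clec-88, both with overlap. The gene clec-150 had 11.32, 10.87 and 11.50 in tdp-1(ok803) and 10.64, 10.98 and 10.43 in wild type, a difference of 0.54 (limma adjusted p = 0.635), in which mutant replicate 2 and wild-type replicate 2 crossed.

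Wide swings within a genotype marked clec-47. Its values were 9.34, 9.83 and 9.995 in tdp-1(ok803) and 10.31, 10.66 and 7.67 in wild type. Wild-type replicate 3 lay over 2.5 units below the other wild-type arrays. The difference of 0.18 ± 0.70 (SE) became -0.76 without wild-type replicate 3. The gene clec-1 had 10.13, 10.26 and 9.52 in tdp-1(ok803) and 10.05, 9.56 and 10.21 in wild type, with the lowest value of each genotype on the 2 arrays, mutant replicate 3 and wild-type replicate 2, that had the greatest 3' minus 5' difference, a measure described below.

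Second probe sets were available for 15 clec genes, 16 in all, and 11 of them had the sign of the one that stood for the gene. Both were apart upward for clec-10 at 0.70 and 0.38, clec-208 at 0.54 and 0.48, and clec-136 at 0.18 and 0.15. The gene clec-135 was apart upward on one, at 0.36, and overlapped on the other, at 0.018. The probe sets of clec-72 differed by -0.24, wholly lower, and by -0.29 with overlap. Those of clec-8 disagreed, at 0.47 and -0.11, and the difference of clec-150 was 0.54 on one and 0.19 on the other. The genes clec-60, clec-70, clec-86, clec-62 and clec-41 had 1 probe set each, so their differences have no second measurement here. These genes were picked for this paragraph after their values were seen.

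Averaged over the family, the arrays did not separate by genotype. Each value was centred on its gene's mean over 6 arrays and averaged over the 220 genes. The averages were 0.060, -0.01 and 0.11 in tdp-1(ok803) and -0.03, 0.055 and -0.18 in wild type. The genotypes overlapped, with wild-type replicate 2 among the mutant arrays and wild-type replicate 3 far below the rest. The 3' minus 5' difference of the actin and Gapdh control probe sets, which reflects RNA integrity and how far labelling reached, was 4.01, 3.09 and 4.31 in tdp-1(ok803) and 2.69, 4.12 and 2.52 in wild type. Arrays above 4 had the 3 highest family averages.

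At a fixed genotype the median slope of clec genes on that difference was 0.13 per unit, against 0.058 for all probe sets. With it as a covariate the family median was -0.01, against -0.03 for all probe sets, and 103 of 220 genes were above 0, of which 96 were above 0 without it too. The 55 brighter genes had a median of 0.13 with the covariate, against 0.005 for all probe sets of that range. Their split rests on a mean that includes the mutant arrays, as said above. Leaving out wild-type replicate 3 brought the family median to 0.0072, and leaving out mutant replicate 3 to 0.029, while without wild-type replicate 2 it was 0.12. For the 55 brighter genes the same fits gave 0.12, 0.16 and 0.23. The part of labelling in the upward lean of the family was not tested beyond this covariate.

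**Figure D4:**
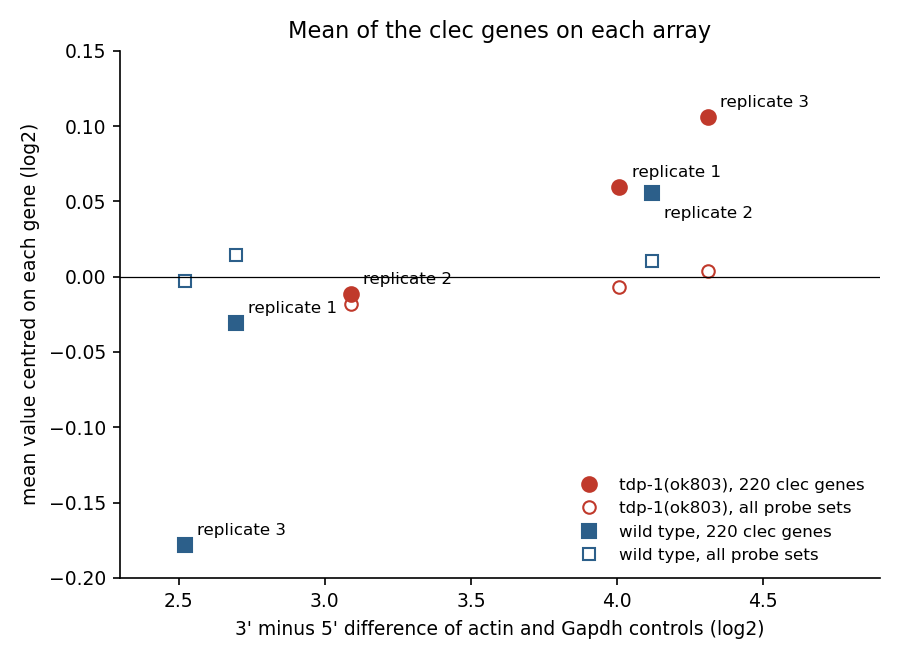
Mean over 220 clec genes of the values centred on each gene (log2, y axis, filled symbols) against the 3' minus 5' difference of the actin and Gapdh controls (log2, x axis) on each of 6 arrays, tdp-1(ok803) as red circles and wild type as blue squares, with all probe sets as open symbols. Wild-type replicate 2 sits with the mutant arrays at 0.055 and wild-type replicate 3 stands apart at -0.18.

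Single genes responded differently to the covariate. The difference of clec-60 was 3.41 with it and that of clec-86 1.77, while clec-70 was at 1.45, clec-62 at 1.09 and clec-41 at 1.21. For clec-180 it was -0.83 and for clec-190 -1.65. Among the PMK-1 dependent genes clec-4 stood at 0.53, clec-67 at 0.42 and clec-85 at 0.61. The covariate also turned clec-52 to -0.21 and brought clec-1 to 0.32.

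Other genes of the same immune programme were taken from lists and differed mostly by less than 1. Of 27 measured genes of immune signalling, from the kinases and transcription factors upstream of effectors to the insulin and TGF-beta routes, limma called 0, and 15 had a difference above 0, with a median of 0.032. At the smallest p stood tpa-1, a protein kinase C, at -0.30, and zip-2, a transcription factor of the response to Pseudomonas aeruginosa, at -0.50. Of 6 other effectors induced by Staphylococcus aureus 0 were called, 5 were above 0 and the median was 0.25. The lysozyme gene lys-5 had 4.78, 5.02 and 5.18 in tdp-1(ok803) and 4.26, 4.52 and 4.14 in wild type, a difference of 0.69 without overlap (limma adjusted p = 0.299).

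Effectors downstream of PMK-1 outside the family went both ways, with 4 of 9 above 0, 0 called and a median of -0.18. The CUB-like gene irg-4 had 8.87, 9.03 and 9.11 in tdp-1(ok803) and 10.09, 9.80 and 11.79 in wild type, a difference of -1.56 (limma adjusted p = 0.511). In the opposite direction C17H12.8 had 8.79, 8.87 and 8.60 in tdp-1(ok803) and 8.39, 7.62 and 6.85 in wild type, a difference of 1.14 (limma adjusted p = 0.516). Wild-type replicate 3 held the extreme value for both genes. Without it the difference was -0.94 for irg-4 and 0.75 for C17H12.8. The 12 galectin genes, another class of sugar-binding proteins, had a median of 0.090, 0 calls and 8 above 0.

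Markers of tissues and stages were read on the same arrays. Intestinal markers, 12 of 12 measured, averaged 9.76 to 10.05 in tdp-1(ok803) and 9.69 to 10.15 in wild type per array. Of them 4 had a difference above 0, and mtl-2 alone did not overlap, wholly below at -0.84 (against 4.84% of all probe sets). Sperm markers averaged 8.86 to 9.11 in tdp-1(ok803) and 8.90 to 9.22 in wild type, with 2 of 10 above 0. Yolk protein genes averaged 13.60 to 13.98 in tdp-1(ok803) and 13.71 to 13.90 in wild type, with 3 of 5 above 0. All sperm and yolk markers overlapped. Oocyte and embryo markers averaged 10.85 to 11.29 in tdp-1(ok803) and 11.02 to 11.11 in wild type, with 6 of 12 above 0. Of these 12, oma-2 at 0.34 and skn-1 at 0.47 lay wholly above wild type (against 6.8% of all probe sets). In these 4 lists limma called 0.

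Markers of moulting larvae and of neurons were lower in the mutant arrays on balance. The 8 markers of moulting larvae averaged 7.40 to 7.77 in tdp-1(ok803) and 8.07 to 8.89 in wild type, with a median difference of -1.11, and 7 of 8 lay wholly below wild type, against 4.84% of all probe sets, though limma called 0. Neuron markers averaged 7.48 to 7.70 in tdp-1(ok803) and 7.66 to 8.14 in wild type, with 1 of 8 above 0 and a median difference of -0.48. Of the 8, 3 lay wholly below (against 4.84% of all probe sets), 1 wholly above (against 6.8%) and 0 were called. Pharynx markers averaged 6.06 to 6.51 in tdp-1(ok803) and 5.98 to 6.80 in wild type. Of these 8, 2 were above 0, with a median difference of -0.25, and all overlapped. Markers of males averaged 4.06 to 4.23 in tdp-1(ok803) and 3.96 to 4.24 in wild type, below the array medians. The part of any of these marker differences in the clec differences was not tested.

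The difference of clec-60 ranged from 2.53 to 3.66 over 16 alternative fits. With wild-type replicates 1, 2 or 3 left out it was 3.66, 3.29 and 2.97, and without mutant replicates 1, 2 or 3 it was 3.43, 3.10 and 3.38. Over the fits clec-70 ran from 1.45 to 1.90 and clec-86 from 1.16 to 1.77. Among the genes the rule does not name, clec-62 ran from 0.74 to 1.20, clec-41 from 0.65 to 1.21 and clec-174 from 0.48 to 1.01. On the lower side clec-190 ran from -1.95 to -1.24 and clec-180 from -1.22 to -0.83. Without wild-type replicate 2, limma called clec-180 at -1.22, and without wild-type replicate 3 it called clec-190 at -1.95. These fits share most of their arrays, so closeness among them is partly built in.

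**Figure D5:**
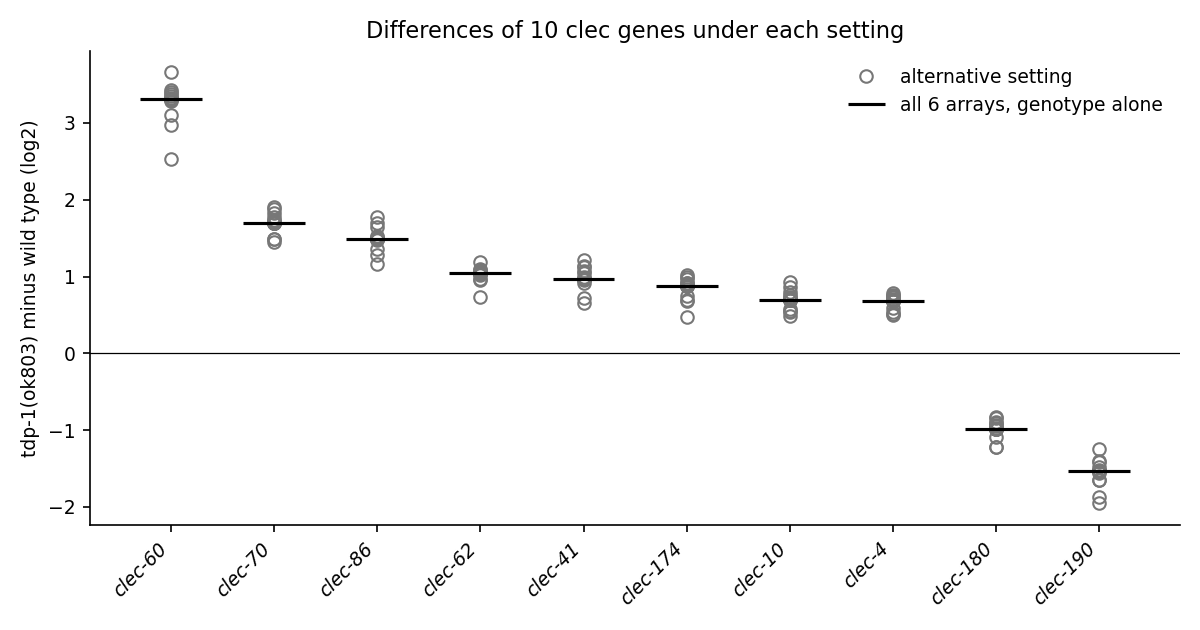
Difference between tdp-1(ok803) and wild type (log2, y axis) of 10 clec genes (x axis) under each alternative setting (grey rings), with a black line for the fit of all 6 arrays on genotype alone. The points of clec-60 lie between 2.53 and 3.66, and each of the 10 genes keeps its sign under every setting drawn.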

How the data were processed

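Per the labels' protocols, total RNA of mixed-stage worms (TRIzol, RNeasy) received a biotin label with Affymetrix 3' IVT Express reagents and went onto the C. elegans Genome Array. The authors deposited log2 values, 1 per probe set and array, and RMA and Partek are named without versions in the submitters' processing notes. The log2 scale was read from the values. Without scanner files, which were not analysed here, no probe set's distance from background is known.

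The fit covered 22548 probe sets, of which 20766 had a single symbol in the platform annotation. Another 77 control probe sets were set aside. All 220 clec genes were found by gene ID in the WBcel235 gene table. Each gene was represented by its brightest probe set on average.

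The genotype effect, mutant minus wild type, was estimated in R 4.3.3 with limma 3.58.1, using lmFit and eBayes. Its two-sided p was Benjamini-Hochberg adjusted over every probe set in the fit, with 0.05 as threshold, and the script was tested on simulated data. Members, lists and the naming rule were chosen with earlier results of these data known. The rule names clec-60, clec-70, clec-86, up to 12 genes a direction whose values do not overlap, the 8 with the highest mean, the clec role lists, adjacent clec genes, and at most 4 genes of each other list. It yielded 50 clec genes. Lists written with older sequence names were matched to current symbols through the gene table. The replicate numbers did not pair the arrays. Alternatives were another spread model, no moderation, 2 scalings, a filter, array weights, a replicate block, a covariate, 2 probe set choices, a threshold of 0.01 and each array left out. Figures were drawn with matplotlib 3.10.9.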

Additional observations from a re-analysis of the deposited data

How the results depend on the processing

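The fit of 6 arrays on genotype called 1 clec gene, clec-60, which helped to select the family, so these counts are a description. No clec gene was called without moderation, with equal array medians, with the replicate block or at an adjusted p under 0.01 (0 each). Of all probe sets, the first 3 of these settings called 0, 0.031% and 0.0222%. The covariate called 2 (0.909%, against 0.111% of all probe sets), clec-60 and clec-86, which both helped to select the family, so nothing is read from that count. Array weights, which range from 0.267 to 7.91 and rest on 1 array a genotype, called 50 (38 higher, 12 lower). That is 22.7% of the family, against 27.9% of all probe sets under the same weights. With single arrays left out, 0 to 3 were called. Without wild-type replicate 2 there were 3 (1.36%, against 0.43% of all probe sets), and calls over all probe sets rose from 13 to 97. Those 3 include clec-60 and clec-70, which helped to select the family. Without wild-type replicate 3 there were 2 (0.909%, against 0.0976%), clec-60 among them. Without any 1 of the mutant replicates 0 were called, against 0.0177% to 0.031% of all probe sets. The family median of 0.066 reversed to -0.0102 with the covariate. Under the filter on dim probe sets 85 of the 120 clec genes left had a difference above 0 (70.8%, against 47.4% of the probe sets left). Without the filter the shares were 66.8% and 50.5%. The filter rests on a mean that includes the mutant arrays, so nothing is read from that share. Every setting, the covariate included, left the family medians within 0.094 of the main fit, the spread of the family mean between replicates. That spread is wider than the family median of 0.066, so staying within it says little. Leaving out wild-type replicate 3 brought the median of all 220 genes near 0. Of the 50 named genes, between 43 and 50 kept their sign in each fit that measured them all, as did all 41 left by the filter and all 36 left without shared probe sets. A change of sign was counted as a reversal for single genes only where either fit called the gene. Same-numbered arrays did not deviate together (correlations of 0.05, -0.61 and -0.46), so the replicate block pairs arrays that share only a number. Causes of these changes were not tested. The dim signals of 165 clec genes, whose distance from background is unknown, limit what can be said of them.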
